A study of Xenopus laevis with 13 samples.

Results

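The unfertilized egg was compared with the first embryonic stages of Xenopus laevis that were arrayed: the 2-cell stage, the 16-cell stage and stage 8. The 4 arrays were chosen by their sample titles out of 13 in the series, 1 for the egg and 3 for the embryos, and the other 9 arrays (stages 9 to 40) served only to follow probes onward. RNA came from whole, dejellied eggs or embryos that had received no treatment, staged by the Nieuwkoop and Faber table, and was hybridized to Agilent frog arrays with 1 dye. The strain, the mothers and whether the eggs came from the clutch of the embryos were not given in the labels. The study collected several unfertilized eggs, and its methods do not state whether an array read a pool of them. Each stage had 1 array, so there was no spread among eggs. The 3 embryo arrays gave a spread that includes change between their stages. With 1 array against 3 there are too few arrangements for a permutation test to give a small p. No p-value is therefore given, and each difference is set beside the range or the SD of the 3 embryo arrays. The 16-cell sample carries a description that names the 2-cell stage, and its title was used. Stage 8 is a cleaving blastula, so the 3 arrays are called the early embryo arrays below.

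A Xenopus egg is laid with a store of maternal mRNA, and the embryo divides rapidly and with little transcription of its own until the midblastula transition, which follows stage 8. Until then, changes in the mRNA pool are known to come mainly from the handling of stored transcripts, among them the lengthening and shortening of poly(A) tails at meiotic maturation and after fertilization. The labeling kit primes cDNA from the poly(A) tail, so the array reads polyadenylated RNA. In these data, more of a transcript and a longer tail on it cannot be told apart, and neither can fewer cells of a type and less RNA per cell.

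The egg array differed from the early embryo arrays as a whole. Its 75th percentile signal over 43803 probes was 942 intensity units, against 2008 at the 2-cell stage, 1843 at the 16-cell stage and 1728 at stage 8, and its median signal was 68.6 against 143 to 159. The share of probes flagged by the scanner software as well above background was 58.96% in the egg and 64.2% to 66.4% in the embryos. Signal from RNA spiked in at labeling ran the other way. Averaged over the 7 spike-in probes detected on every array, their log2 signal was 12.96 in the egg and 12.41 to 12.47 in the embryos. All 4 arrays lay on 1 slide, where position and stage run in the same order and cannot be told apart. The probes carry GenBank accessions and no gene names, and 0 of 28256 accessions were found in the RefSeq gene table used here. Apart from 2 glycosyltransferase genes matched by accession, probes are therefore described as groups, and the egg's marker genes could not be looked up.

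Values below are log2 signals relative to the 75th percentile of the array, unless another scaling is named. A probe was tested if it was well above background in the egg or on all 3 early embryo arrays, which held for 28331 probes. It was counted as higher in the egg if it was above background there and exceeded every one of the 3 embryo arrays by at least 2-fold, and as lower if the reverse held. On this rule 6707 probes (23.7%) were higher in the egg and 5607 (19.8%) were lower, 43.5% in all. The remaining 16017 tested probes were neither. The egg lay outside the range of the 3 embryo arrays for 92.2% of the tested probes. The median SD of a tested probe over the 3 embryo arrays was 0.16 on the log2 scale.

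The embryo arrays differed far less from each other over the same probes. Between the 2-cell and the 16-cell stage 235 probes (0.829%) differed at least 2-fold, between the 16-cell stage and stage 8 320 (1.13%), and between the 2-cell stage and stage 8 829 (2.93%). Between the egg and the 2-cell stage 13285 probes (46.9%) did, followed by 14590 (51.5%) at the 16-cell stage and 15619 (55.1%) at stage 8. The egg's difference was also lopsided. The most common log2 difference of the egg from the 2-cell stage was 1.0 to 1.1, whereas that of the 16-cell stage from the 2-cell stage was -0.1 to 0. Where the egg's peak lies depends on the scaling. The 75th percentile was 942 units in the egg and 2008 at the 2-cell stage, so this scaling raised every egg value against the 2-cell stage by the same amount. To the other side of its peak the egg's difference had a broad shoulder of probes that were lower in the egg, with 5% of the tested probes below -2.74 and 5% above 2.05 against the embryo mean.

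**Figure D1:**
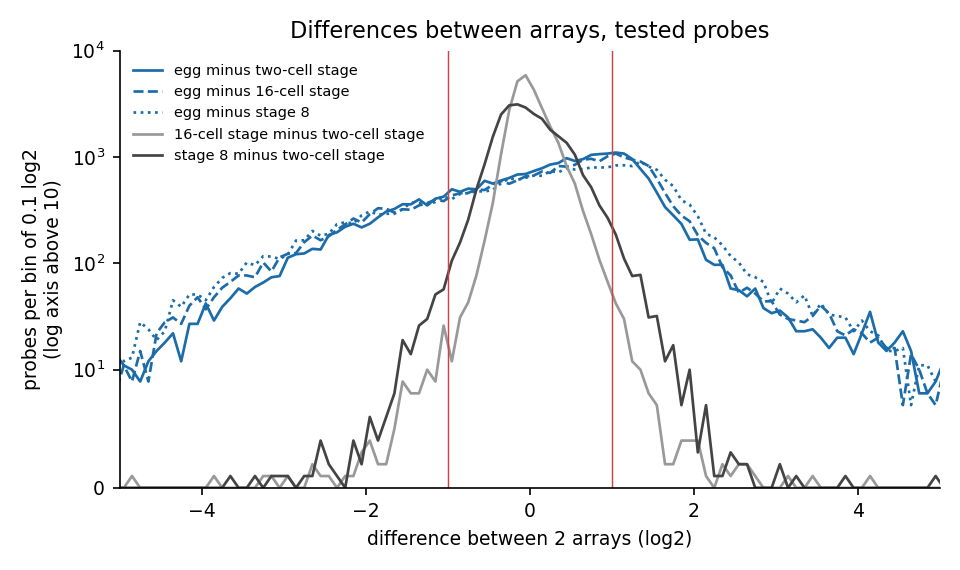
Distribution of log2 differences between pairs of arrays over the 28331 tested probes, in bins of 0.1, with a log axis above 10 probes per bin and vertical lines at 2-fold. The egg's differences from the 3 early embryo arrays (blue) spread widely. They peak at 1 to 1.1 for the 2-cell and 16-cell stages and at 1.3 to 1.4 for stage 8. Those among the embryo arrays (grey and black) stay near 0.

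How many probes were higher or lower depended on what the arrays were scaled to. After scaling to the array median 8010 probes were higher in the egg and 5046 lower, and after quantile normalization 3863 were higher and 5282 lower. With the 75th percentile taken only over probes detected on all 13 arrays, 3921 were higher and 6872 lower, and with normexp background correction (an offset of 50) 3768 were higher and 3378 lower. Scaling to the spike-in RNA left 620 probes higher and 13949 lower. The share of counted probes that were higher was thus 54.5% with the 75th percentile, 61.4% with the median, 42.2% with quantile normalization, 36.3% with the detected probes, 52.7% with normexp and 4.26% with the spike-ins. The median difference over all 43803 probes also moved, but not in the same order. It was 0.72 ± 0.0085 (SD over the 3 embryo arrays), 0.87 with the median, 0.13 with quantile normalization, 0.43 with the detected probes, 0.0051 with normexp and -0.79 with the spike-ins. That SD leaves out variation among eggs, since all 3 differences share the egg array. Of the 43803 probes 13620 were above background on none of the 4 arrays. Over the 28331 tested probes the median difference with the 75th percentile was 0.32. A spike-in scale measures signal against added RNA, and the other scales measure it against the bulk of the same array. How much spike-in RNA was added to each sample is not given in the labels.

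**Figure D2:**
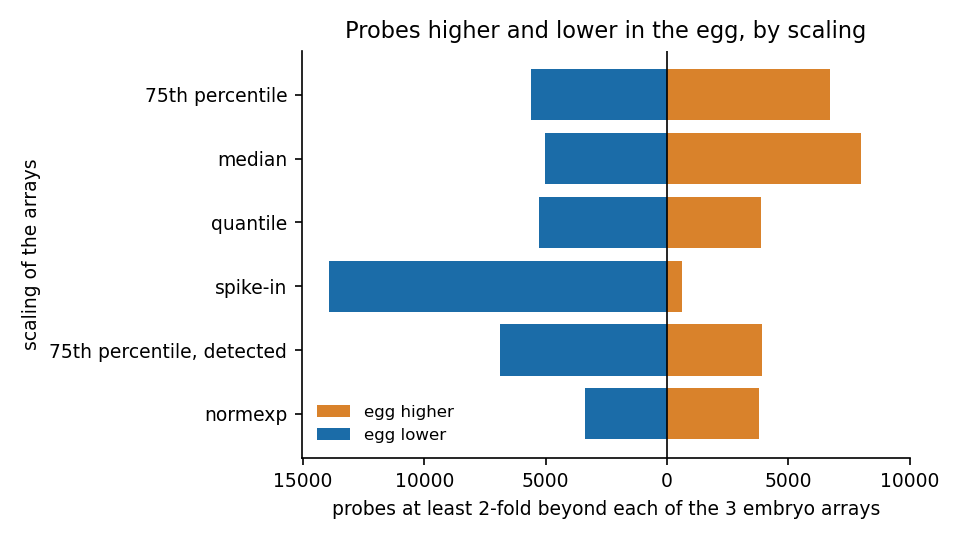
Numbers of probes at least 2-fold beyond each of the 3 early embryo arrays, to the right where the egg was higher and to the left where it was lower, for 6 scalings of the same arrays. The number of lower probes was above that of higher ones with quantile normalization, the detected probes and the spike-ins, and below it with the other 3.

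The spike-in scaling moved the egg down against the embryos for every probe, so by construction it kept all 5607 lower probes and could only remove higher ones, of which 620 remained. This largely sets how many higher probes were counted under every scaling, whereas of the lower probes normexp kept the fewest, 3349. Under all 6 scalings 3146 probes were lower in the egg, 56.1% of the 5607, and 239 were higher, 3.56% of the 6707. The 3146 probes had a median level of -1.96 in the egg and of 0.33, 0.59 and 0.72 at the 2-cell stage, the 16-cell stage and stage 8. They were bright in the embryo, and 2905 of them were well above background on all 4 arrays. The 239 probes had a median of 0.68 in the egg, and of -3.33, -3.36 and -3.50 on the same 3 embryo arrays. They were dim in the embryo, though 192 were above background on all 4 arrays and 31 on no embryo array.

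With the 75th percentile, probes lower in the egg differed by more than those higher in it. Among probes measured on all 4 arrays, the median difference of the 6011 higher ones corresponded to 2.79-fold and that of the 4177 lower ones to 3.89-fold. At a 4-fold limit against each embryo array 664 of the higher (11.0%) and 1563 of the lower (37.4%) remained, and at 8-fold 155 and 408. On this scale the extremes were alike in both directions, with 9 higher and 10 lower probes beyond 64-fold. The largest mean differences were 248-fold above and 181-fold below the embryo mean. With the spike-ins, the log2 differences of these probes were 6.45 and -9.01, so the likeness depends on the scaling.

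Among these 4 arrays, some probes were above background on only 1 side, the egg or the early embryos. In the egg and on no early embryo array 406 probes were called well above background, and on all 3 embryo arrays and not in the egg 2504 were. Where 1 side is not above background, the fold is only a lower limit, taken after 75th-percentile scaling. The dim side was set to the dimmest level that still passed the background test on that array, or to the probe's own signal if higher. All 406 egg probes met the 2-fold rule, with a median limit of at least 4.44-fold. For 68 of them the limit was at least 16-fold, for 16 at least 64-fold, and the highest was at least 1193-fold. Of the 2504 embryo probes 1430 met the rule, with a median limit of at least 2.41-fold. Here 76 were at least 16-fold higher in the embryos, 12 at least 64-fold, and the highest at least 481-fold. The limit itself lay higher in the egg, since the dimmest probe called above background there was at -5.42, against -6.91, -6.56 and -6.44 on the embryo arrays. A probe at the egg's limit thus lay more than 2-fold above the limit of each embryo array. That the 406 met the rule was therefore largely set in advance, and their counts cannot be set against those of the embryo probes. With dim values at the limit, 4904 of the 5607 lower probes still met the rule.

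Probes of both directions were found over the whole range of levels. The tested probes were divided into 10 classes of equal size by their mean level in the embryos. From class 2 to class 9, counted from the dimmest, 16.5% to 25.5% of the probes were higher in the egg and 17.2% to 23.3% were lower. In the dimmest class 36.8% were higher and 11.1% lower, and in the brightest 32.7% were higher and 15.8% lower. The dimmest class cannot be set against the others, since a probe below background on an embryo array was tested only if it was above background in the egg, and 406 higher probes below background on every embryo array and 290 below it on some entered that way. The SD over the embryo arrays fell from a median of 0.25 in the dimmest class to 0.13 in the brightest. The counted probes were also spread over the array: between 4 blocks of rows and between 4 blocks of columns the share that was higher ran from 22.4% to 24.8% and the share that was lower from 19.1% to 20.4%.

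Many accessions are carried by 2 probes, which read the same labeled RNA at separate spots. Of 9036 accessions with both probes tested, both were higher in the egg for 1599 and both lower for 1638. In 40 accessions (0.443%) they were counted in opposite directions. In 1333 only 1 probe was counted, and in 4426 neither. The difference of the egg from the embryo mean had the same sign at both probes in 90.8% of these accessions. The gap between both probes' differences was nonetheless wider for the egg than among embryos. Over 7805 accessions whose probes were measured on all 4 arrays, the difference of the egg from the 2-cell stage disagreed at least 2-fold between probes in 424 (5.43%), and that of stage 8 from the 2-cell stage in 18 (0.231%). The median gap was 0.17 for the egg and 0.077 for stage 8. The differences themselves were also larger for the egg, with a median size of 0.94 against 0.27 over the tested probes. A fixed 2-fold gap therefore does not show that the probes agreed less well for the egg.

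Of the embryo arrays, the 2-cell stage lay nearest to the egg. It was the nearest array for 68.9% of the probes higher in the egg and for 67.2% of those lower in it, against 48.4% of the tested probes that were neither. The median distance from the egg among the higher probes was 1.40 at the 2-cell stage, 1.51 at the 16-cell stage and 1.67 at stage 8, and among the lower ones 1.88, 2.08 and 2.21. On this scale both groups thus moved a little farther from the egg with each stage. Relative to the spike-in signal, the 75th percentile stood at -3.08 in the egg, -1.44 at the 2-cell stage, -1.57 at the 16-cell stage and -1.71 at stage 8. A spike-in scale would therefore shift each embryo array by a different amount against the egg, and the order could change. The distances were not repeated on that scale. A distance of at least 2-fold at the 2-cell stage was required by the counting rule, so its size there is no result. Over all tested probes the median distance was 0.94 at the 2-cell stage, 1.03 at the 16-cell stage and 1.12 at stage 8. The probes that did move at least 2-fold between the 2-cell stage and stage 8 were 362 upward and 6 downward among those lower in the egg, and 51 upward and 134 downward among those higher in it. These distances share the egg array.

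At stage 9, on another slide and not used to choose the probes, both groups stayed near their early embryo level. Within 2-fold of the mean of the 3 embryo arrays were 98.0% of the probes higher in the egg, 98.95% of those lower and 98.9% of the tested probes that were neither. In all 3 groups probes then left that level: at stage 10.5 the shares were 79.2%, 89.5% and 88.0%, at stage 12 50.6%, 61.0% and 62.0%, and at stage 40 37.7%, 33.7% and 38.9%. The later slides and the stages cannot be told apart.

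Whether a probe came back to the egg's level depended on the limit and on the scaling. The counts here were made with the 75th percentile alone. Relative to the spike-in signal, that percentile stood at -3.08 in the egg and at -0.97 at stage 40. A spike-in scale would therefore set egg levels lower against stage 40, and these counts were not repeated on it. On at least 1 later array 53.4% of the probes higher in the egg and 56.3% of those lower in it came within 2-fold of their egg level. On all 9 later arrays 42.6% of the probes higher in the egg stayed at least 2-fold below it, and 42.9% of the probes lower in the egg stayed at least 2-fold above it. At stage 40, 19.8% of the higher probes were at or above their egg level and 24.6% of the lower probes at or below theirs. Among the tested probes that were neither, 34.8% were at or above their egg level then and 65.2% at or below it. Of these, 93.6% came within 2-fold of their egg level on at least 1 later array, but by the counting rule they had begun nearer to it. The median of the higher probes was 1.02 in the egg, between -0.78 and -0.53 on the early embryo arrays, -0.75 at stage 9 and -0.53 at stage 40. The median of the lower probes was -3.15 in the egg, rose from -0.93 at the 2-cell stage to -0.54 at stage 9, fell to -1.28 at stage 20, and was -1.14 at stage 40.

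**Figure D3:**
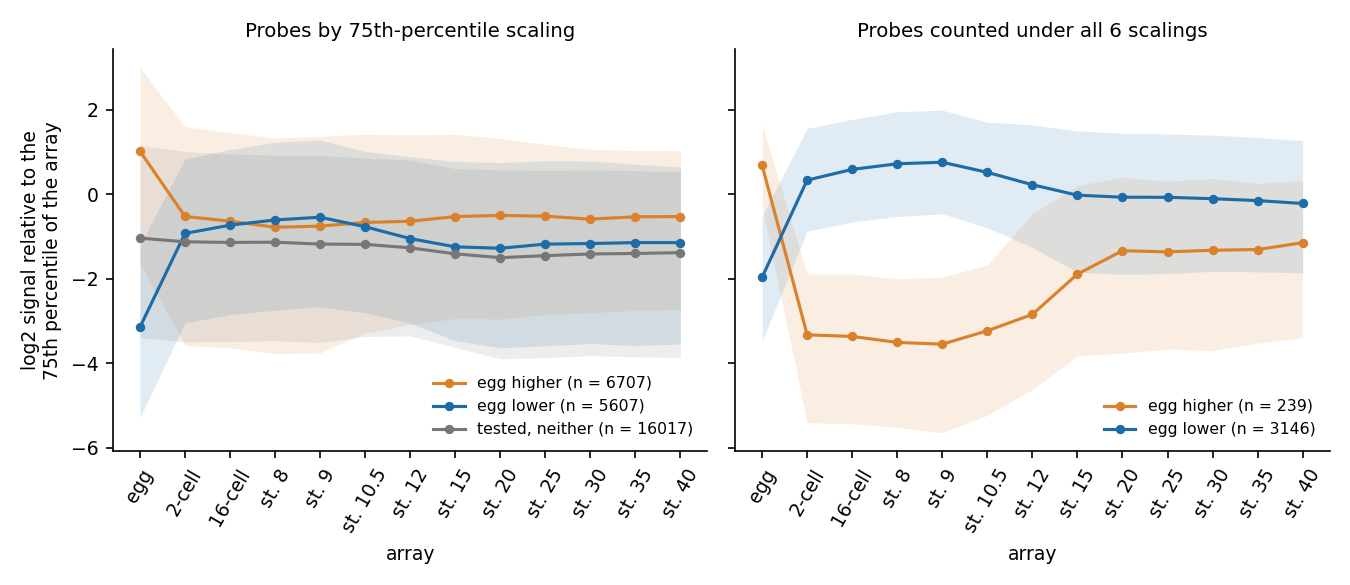
Median log2 signal relative to the 75th percentile on each of the 13 arrays (points and lines) with the interquartile range over probes (shading), for probes higher, lower or neither in the egg (left) and for those counted under all 6 scalings (right). On the right, the 239 higher probes rise from -3.55 at stage 9 to -1.15 at stage 40, and the 3146 lower probes decline from 0.76 to -0.22.

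The probes that were higher in the egg under all 6 scalings included many that rose again. At stage 40, 64.0% of the 239 were at least 2-fold above their early embryo mean, against 28.9% of all 6707 higher probes and 20.9% of the tested probes that were neither. Among probes that were neither, a lower embryo level went with a more frequent rise. Their share was 42.1%, 36.4%, 26.7% and 23.6% in level classes 1 to 4, whose medians run from -5.86 to -2.32. The 239 had a median of -3.33 at the 2-cell stage, with an interquartile range from -5.40 to -1.89. They were also chosen by values on the embryo arrays that lay below the egg, and those arrays serve as their baseline. The rise was under way at stage 12, when 40.6% of the 239 were above their early level, and reached 51.5% at stage 15 and 56.5% at stage 20. Even so 20.5% were at or above their egg level at stage 40. Of the 3146 probes that were lower in the egg under all 6 scalings, 47.6% were at least 2-fold below their early embryo mean at stage 40. Among the probes that were neither this share was 43.4% in level class 7 and 48.5% in level class 8. These values were set side by side and not tested.

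Detection followed the same course. Of the 406 probes above background in the egg and on no early embryo array, 3.94% were above background at stage 9 and 26.6% at stage 10.5, and the share climbed through 37.7% at stage 12 and 48.3% at stage 15 to reach 69.2% at stage 40. Probes above background on none of the 4 arrays, 13620 in number, reached 2.03%, 15.7%, 21.7%, 29.5% and 48.3% on the same arrays. The 1852 probes above background on 1 or 2 early embryo arrays and not in the egg came to 20.4%, 36.4%, 37.3%, 46.5% and 70.5%. At stages 12, 15 and 40 the egg's 406 probes were thus close to these and above the probes detected on none. The first later array to detect one of the 406 was stage 9 for 16 probes, stage 10.5 for 97, stage 12 for 55 and stage 15 for 46, and 88 were detected on no later array. The 2504 probes above background on all 3 early embryo arrays and not in the egg were still detected in 91.7% of cases at stage 9, in 69.9% at stage 15, their lowest share, and in 83.4% at stage 40.

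**Figure D4:**
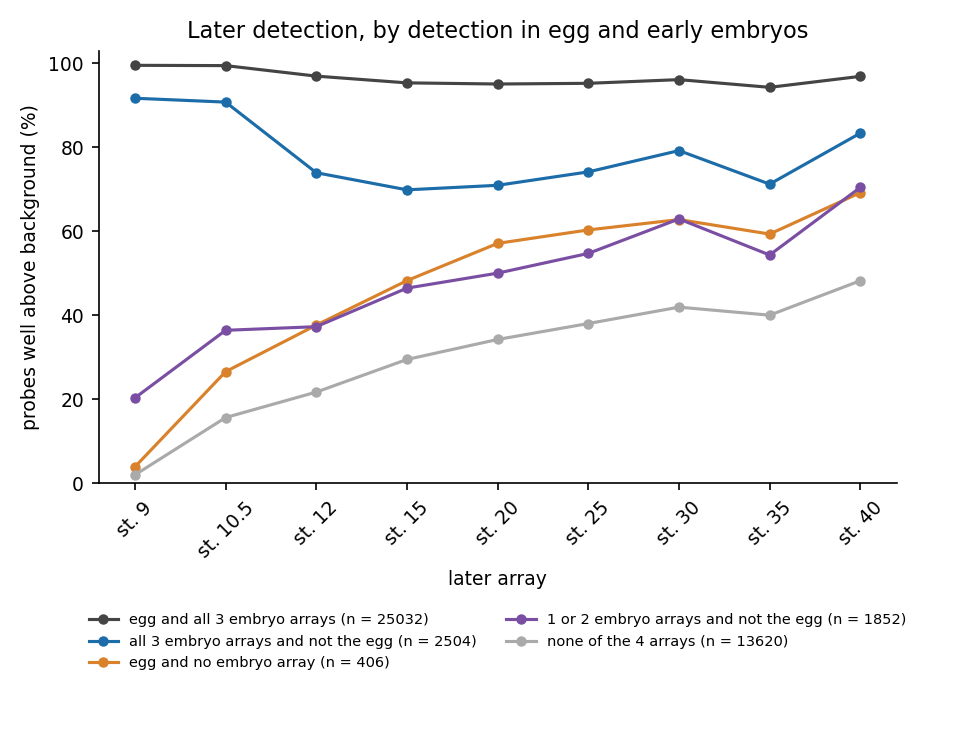
Share of probes called well above background on each later array, for 5 classes of detection in the egg and on the 3 early embryo arrays. The 406 probes detected in the egg and on no early embryo array climb to 69.2% at stage 40. This is near the 70.5% of the probes detected on 1 or 2 embryo arrays. It is above the 48.3% of those detected on none of the 4 arrays.

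The probes farthest from the embryos show these courses one by one. They were taken by their distance to the nearest early embryo array among probes above background on all 4 arrays, 2 accessions in each direction, and their genes are not named in the files. Of those higher in the egg, accession BC075237 came back. Its probe Xl#S21057590_2683 stood at 2.22 in the egg, -5.71 at the 2-cell stage, -6.05 at the 16-cell stage, -5.45 at stage 8 and -5.81 at stage 9. It then rose to -4.16 at stage 10.5, -1.63 at stage 12 and 0.90 at stage 15, passed its egg level with 2.34 at stage 20, and was 2.70, 2.89, 3.44 and 3.46 at stages 25, 30, 35 and 40. The egg was 7.96 above the embryo mean of -5.74 ± 0.30 (SD, n = 3). The other probe of the accession also dropped and rose, from 0.42 in the egg to -0.45 at stage 20, 0.79 at stage 35 and 1.11 at stage 40. On this scale it first passed its egg level at stage 35, after 0.03 at stage 25 and 0.17 at stage 30. Other scalings were not run for this probe, so its later passing than the first probe may depend on the scale. It was above background on 1 early embryo array, stage 8, where it stood at -5.57.

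Accession BQ398814 did not come back. Its single probe Xl#S13795443_516 was at 1.44 in the egg and at -5.62, -5.59 and -5.92 on the early embryo arrays. From stage 9 to stage 35 it lay between -6.97 and -5.69, not above background at stages 15 and 20, and it was at -4.65 at stage 40. The egg alone was high, 7.15 above the embryo mean of -5.71 ± 0.18 (SD, n = 3).

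Both accessions at the other end were far higher in the early embryos than in the egg and at their lowest embryonic level at stage 40. Probe Xl#S13724931_485 of BJ077643 stood at -4.33 in the egg and at 2.85, 2.87 and 2.74 on the early embryo arrays. It stayed between 2.83 and 3.59 from stage 9 to stage 20 and was 2.36, 0.40 and -0.37 at stages 25, 35 and 40. The egg was 7.15 below the embryo mean of 2.82 ± 0.071 (SD, n = 3). Its second probe, Xl#S13724931_393, ran close to it in the embryos, with 2.46, 2.57 and 2.34 on the early embryo arrays and -0.61 at stage 40, and yet had -0.63 in the egg, a difference of -3.09 from the embryo mean, so both probes agree on the direction and not on the size.

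For BC077554 both probes gave a large difference. Xl#S21313181_967 was at -3.81 in the egg and at 2.68, 3.31 and 3.48 on the early embryo arrays, with 3.37 at stage 9, between 1.88 and 2.59 at stages 10.5 to 20, and 0.51, 0.10 and -0.54 at stages 30, 35 and 40. The egg differed by -6.96 from the embryo mean of 3.15 ± 0.42 (SD, n = 3). Xl#S21313181_1007 differed by more, at -4.98 in the egg against 2.52 ± 0.40 (SD, n = 3). All 6 probes that were above background on all 4 arrays kept their direction under the other scalings. Their accessions were picked for the largest distances, so the direction was largely fixed in advance. The size of their differences changed with the scaling.

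**Figure D5:**
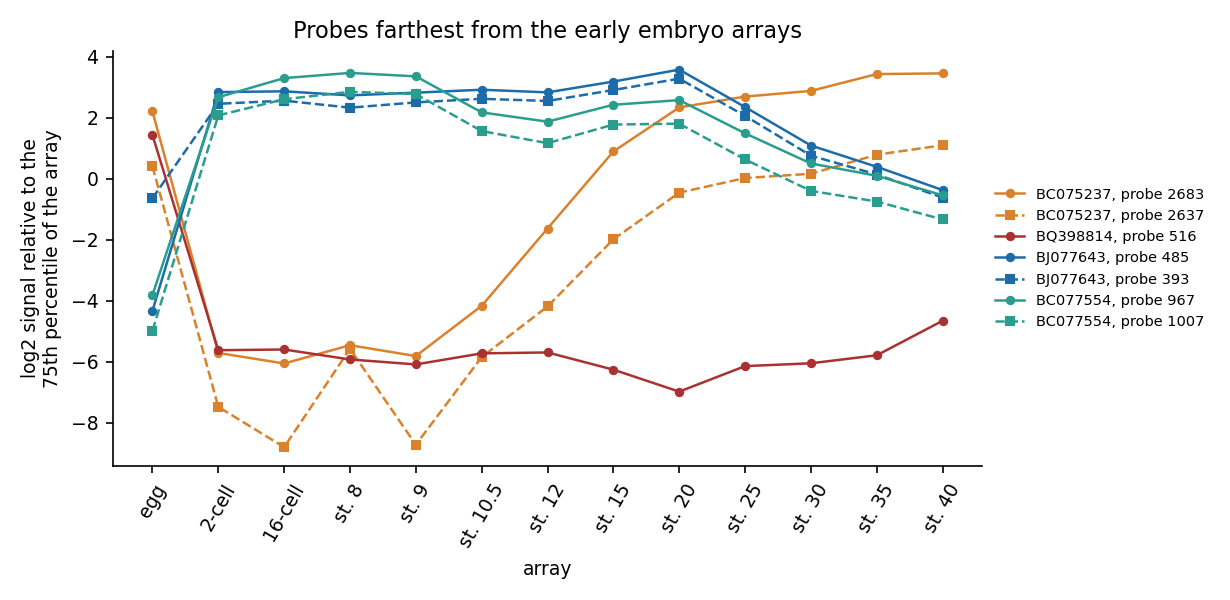
Log2 signal relative to the 75th percentile on each of the 13 arrays for the 7 probes of the 4 accessions farthest from the early embryo arrays, with circles and solid lines for an accession's first probe and squares and dashed lines for its second. BC075237 drops after the egg. On this scale its first probe passes its egg level at stage 20 and its second at stage 35. BQ398814 stays low, and BJ077643 rises after the egg and declines from stage 25. BC077554 rises and is already lower at stage 10.5 than at stage 9.

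Of the study's list of genes for glycan synthesis, 2 were paired with probes by accession. gcnt2 encodes a transferase that branches poly-N-acetyllactosamine chains, and its 2 probes were above background neither in the egg nor on any early embryo array. mgat5b encodes a transferase that branches N- and O-glycans, and each of its 2 probes was above background only at the 2-cell stage among the 4 arrays. It stood at -6.59 and -6.64 there, near the lowest value called above background. Neither gene met the condition for testing, so 0 of these 4 probes were compared.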

How the data were processed

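The authors labeled total RNA with Cy3 (Quick-Amp) and deposited 1 scanner file per array. In these deposited files Agilent Feature Extraction 10.7.3.1 wrote a background-corrected intensity per spot on a linear scale, the median spot and background intensity, and a flag, other than an intensity, for spots well above background. All 587860 values of the deposited series table equaled the processed signal (relative tolerance 1e-06). Control spots (1417 of 45220) were left out. Signals were floored at 1, which changed no value, converted to log2 and reduced by the array's own 75th percentile, after the study's methods.

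Probes were counted as described, with no test, in Python 3.11.15 (numpy 2.4.6, pandas 2.3.3, matplotlib 3.10.9). Quantile normalization and normexp (offset 50, on median intensities since mean intensities were absent from the columns read) were run in R 4.3.3 with limma 3.58.1. The code of the counting rule was run on simulated arrays. The simulated egg had no shift of the whole array, so this run does not bear on the scaling of the real arrays. Alternatives were other scalings, filters and limits, leaving out each early embryo array, and 1 value per accession. Raising dim values to the lowest value above background, and the probes counted under all 6 scalings, were chosen after seeing the data. The samples and lists were chosen with earlier results of these data known.

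Probes were named by distance to the nearest early embryo array, at most 2 accessions per direction because no gene names were at hand. The gene lists and the cell type markers drawn up for the comparison could not be applied, except the study's glycogenes (2 accessions). The number of arrays limits the precision.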

Additional observations from a re-analysis of the deposited data

How the results depend on the processing

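The counts depended on the scaling and the limits more than on any 1 embryo array. All counted probes together (12314) numbered 7146 with normexp, 3472 at a 4-fold limit (32.3% higher) and 8000 with 1 mean value per accession. The 6707 higher probes became 3863 with quantile normalization, 620 with spike-in scaling, 3921 with the probes detected on all 13 arrays, 3768 with normexp, 10569 with no filter on dim probes (65.1% of those counted) and 1121 at 4-fold. The 5607 lower probes became 13949 with spike-in scaling, 3378 with normexp, 2351 at 4-fold and 3430 per accession. The median difference over all probes (0.72) was 0.87 with the median, 0.13 with quantile normalization, 0.43 with the detected probes, 0.0051 with normexp, and reversed to -0.79 with the spike-ins. Over the 25032 probes above background on all 4 arrays (0.41) it was 0.56, 0.27, 0.13 and 0.20 in the same order, and reversed to -1.09 with the spike-ins. Probes within 2-fold of the early embryo mean are given with the size of their group, which changed too. Of the higher probes at stage 9 (6574 of 6707) they were 3739 of 3863 with quantile normalization and 579 of 620 with spike-ins. They were 3813 of 3921 with the detected probes, 3731 of 3768 with normexp, 10220 of 10569 with no filter and 1063 of 1121 at 4-fold. At stage 40 (2528) they were 1122, 115, 1404, 1647, 4370 and 280 of the same groups. Of the lower probes at stage 9 (5548 of 5607) they were 13819 of 13949 with spike-ins and 3358 of 3378 with normexp. At 4-fold they were 2325 of 2351, and 3404 of 3430 per accession. At stage 40 (1891) they were 1170 of 5046 with the median and 5413 of 13949 with spike-ins. At 4-fold they were 811 of 2351, and 1168 of 3430 per accession. The stage 9 counts thus mostly followed the size of the group. Leaving out each embryo array in turn gave 12597 to 13780 counted probes, 6879 to 7599 higher and 5718 to 6181 lower, and median differences of 0.708 to 0.731 over all probes and 0.408 to 0.430 over those above background on all 4 arrays. With dim values raised to the lowest value above background, chosen after seeing the data, 6707 probes were higher and 4904 lower. The higher count could not change here, because the egg's limit lay more than 2-fold above that of each embryo array. The cause of these shifts was not tested. Under the other 5 scalings and without each embryo array in turn, the 6 named probes above background on all 4 arrays kept their direction. No other alternatives were run for them. In 23 of the 48 comparisons the difference moved by at least the probe's SD over the embryo arrays. For Xl#S21057590_2683 it was 7.96, with 6.45 after spike-in scaling and 5.61 after normexp. For Xl#S13724931_485 it was -7.15, with -8.66 and -5.84. No paired analysis was possible because the egg has 1 array and the numbers of the embryo arrays only name stages. Alternatives for gene lists were not run, since no accession could be named. Below background a fold is only a limit, and that limit lay highest in the egg. With 1 egg array, the variation among eggs, a defect of that array and the stage cannot be told apart.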

Other observations

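The accessions of the array come from different kinds of GenBank entry, told by their prefix. BC entries are full-length cDNA clones, and of their 10878 tested probes 24.9% were higher in the egg and 22.8% lower. For all other entries the shares were 22.9% and 17.9% of 17453 probes. The BC probes were also brighter, with a median embryo level of 0.48 against -1.89 for the others. Kind of entry and signal level therefore cannot be told apart here. Among the 29 prefixes with at least 100 tested probes the share that was higher ran from 13.95% (CV) to 36.1% (BM), and the share that was lower from 1.67% (CO) to 32.6% (CV). CV, CX and CN entries leaned to the lower side, with 13.95%, 14.4% and 21.9% of their probes higher and 32.6%, 29.3% and 32.5% lower. BM, BI and BF entries leaned to the higher side, with 36.1%, 34.3% and 32.4% higher and 14.8%, 10.95% and 18.5% lower. The CO probes were the dimmest of these, with a median embryo level of -4.66. The prefixes were singled out after their values were seen, no test was made, and the tissues behind the entries are not given in the files.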
